A study of Mus musculus with 103 samples.

Results

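The genes described here act in endoplasmic reticulum (ER) protein folding, and were measured in the cortex of mice that lack Nsun2, a methyltransferase of tRNA, in excitatory neurons. They are Hspa5, Hsp90b1, Calr, Canx, Pdia3, Pdia4, Pdia6, Hyou1, Dnajb9 and Xbp1, a list of chaperones, folding enzymes and 1 transcription factor of the unfolded protein response. The list was set by name, with earlier results of these data known. All 10 were found among the 12719 transcripts of the ribosome profiling table, each as a single transcript, and all 10 reached the mean footprint value of 10 that was required for testing, as did 10674 transcripts in all. The question was whether this ER branch of the stress response moved with Atf4 or apart from it.

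Adult cortex of 4 mice was profiled, 2 Nsun2 KO and 2 WT. KO mice carried floxed Nsun2 alleles (Nsun2 2lox/2lox, with exon 6 between loxP sites) and a Camk2a-Cre transgene, which deletes Nsun2 in excitatory forebrain neurons. WT mice also carried floxed Nsun2 (2lox/2lox or 2lox/-) but no Cre. Inhibitory neurons, glia and vessels of a KO cortex keep Nsun2, so the values below are averages over deleted and undeleted cells. Each mouse gave an RNA library and a library of ribosome footprints, the stretches of mRNA that a ribosome shields from nuclease, and translational efficiency is the footprint value of a transcript divided by its RNA value in the same mouse.

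Proteins that enter the ER are bound by Hspa5 (BiP), the Hsp70 chaperone of the lumen, which works with J-domain partners such as Dnajb9 (ERdj4) and with Hyou1, its nucleotide exchange factor. Hsp90b1 (Grp94) is the ER member of the Hsp90 family. The lectins Canx, in the membrane, and Calr, in the lumen, hold glycoproteins while Pdia3 (ERp57) forms their disulfide bonds, and Pdia4 and Pdia6 are further disulfide isomerases. When unfolded proteins accumulate, the sensors Ern1 (Ire1), Atf6 and Eif2ak3 (Perk) are released from Hspa5. Ern1 splices the mRNA of Xbp1, Atf6 is cleaved into a transcription factor, and both then raise the genes of ER chaperones, while Eif2ak3 phosphorylates eIF2α and thereby favours the translation of Atf4. Other eIF2α kinases, which do not sense the ER, lead to Atf4 as well. Levels of Atf4 alone therefore do not tell these arms apart, and the chaperone genes read out the arms of Ern1 and Atf6.

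Sequence features of the ER stress response and of the retention of proteins in the ER were counted in the members, and are shown first. The genes were listed for these same roles, so the shares below describe the list and are not a test of it. The ER stress response element, a CCAAT box spaced from CCACG and bound by NF-Y together with Atf6 or spliced Xbp1, was searched in RefSeq promoter windows (GRCm38.p6, 250 bases before to 50 after the start site) as the letters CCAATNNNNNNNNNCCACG on both strands. It was found in 5 of the 9 members with a window, against 0.119% of 32851 promoters. The matches are printed along the strand of the gene with 5 bases on each side and the fixed bases of the element in capitals. In Calr and in the nearer element of Hsp90b1 the element runs in reverse.
Hspa5: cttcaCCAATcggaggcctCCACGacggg
Hsp90b1, nearer element: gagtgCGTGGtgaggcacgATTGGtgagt
Hsp90b1, farther element: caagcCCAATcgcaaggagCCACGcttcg
Calr: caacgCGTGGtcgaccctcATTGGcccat
Canx: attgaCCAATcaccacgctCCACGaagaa
Pdia6: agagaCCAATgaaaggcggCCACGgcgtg
The stretch of Hspa5 lies at chr2:34772020-34772048 on the + strand and that of Pdia6 at chr12:17266486-17266514 on the + strand. On the - strand lie those of Hsp90b1 at chr10:86705528-86705556 and chr10:86705633-86705661, that of Calr at chr8:84847070-84847098 and that of Canx at chr11:50325795-50325823. The elements begin between 65 (Hspa5) and 212 (Hsp90b1, farther element) bases before the RefSeq start site. Further elements were searched in the same windows on both strands, and none was found in these 9 members. They were ERSE-II (ATTGGNCCACG, in 0.0365% of all promoters), the core TGACGTGG of the unfolded protein response element (0.676%) and TGATGCAA, a composite element of Atf4 (0.895%). None of the elements was found in the windows of Atf4, Ddit3 and Asns either, so the absence of TGATGCAA does not set the members apart from these genes. These matches are letters in a window, and binding was not measured here.

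Soluble ER proteins carry a retention signal at their end, lysine, aspartate, glutamate and leucine, and its codons stood before the stop codon in 4 of the 10 members, against 10 of 12588 transcripts with a coding sequence in GENCODE vM21 (0.0794%). The last 30 coding bases of these members and of the close variants are shown with the codons before the stop in capitals.
Hspa5: gaggatacatcagaaAAAGATGAGTTGtag
Hsp90b1: aaggaatctacagagAAGGATGAATTGtaa
Calr: tcccctggccaagccAAGGATGAGCTGtag
Pdia6: ctggatgacctggagAAGGATGAGTTGtga
Pdia4: aagaggagcaggaccAAGGAAGAGCTTtaa
Hyou1: aagcggccttcaaagAACGATGAACTAtaa
Pdia3: aagaagaagaaggcaCAAGAGGACCTCtaa
Pdia4 ends in codons for lysine, glutamate, glutamate and leucine, Hyou1 in asparagine, aspartate, glutamate and leucine, and Pdia3 in glutamine, glutamate, aspartate and leucine. The other transcripts with the exact signal were Dnajc10, Edem3, Kdelc1, P3h2, P4hb and Txndc5. The Xbp1 transcript of the table has 267 codons, the unspliced reading frame, so that the spliced mRNA made by Ern1 could not be told apart from it in these values.

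Nsun2 itself checked the labels. Its RNA was 1292 and 1119.9 in WT and 362 and 368 in KO, and its footprints were 130.0 and 114 in WT and 30.4 and 23.0 in KO (log2 fold changes -1.72 and -2.16, limma adjusted p = 4.5e-05 and 1.5e-04). Normalized values summed to between 11276296 and 11598214 in the RNA libraries and between 1299137 and 1325836 in the footprint libraries. RNA values were whole multiples of a step in each library (within 1e-06), and added up to between 10465003 and 13174377 steps. The tissue carried neuronal markers as labelled, with summed RNA of 8 excitatory neuron markers between 69239 and 85682. Of the marker lists, summed RNA of inhibitory neuron markers was higher in both KO mice (8795 and 8966, against 6969 and 6830 in WT). That of excitatory neuron markers was lower (69239 and 69770, against 85682 and 77831), but Nrgn and Camk2a made up most of it. In WT mouse 1 they had 40284 and 30778. Of the 8 excitatory neuron markers, 6 had a negative log2 fold change in RNA and 2 a positive one, where 44.0% of all tested transcripts were negative. Both KO mice lay below both WT mice for 4 of the 8, against 21.6% of all tested transcripts. Of single markers, 1 of 8 inhibitory neuron markers (Pvalb) and 1 of 8 astrocyte markers (Gfap) were called higher in RNA, 1 of 8 microglia markers (Cx3cr1) was called lower, and 0 of 8 excitatory neuron and 0 of 8 oligodendrocyte markers were called. Without WT mouse 2 none of Pvalb, Gfap and Cx3cr1 passed (limma adjusted p = 0.102, 0.109 and 0.196), and Cx3cr1 did not pass without KO mouse 1 either (0.177). Summed RNA of the endothelium and blood markers was also higher in both KO mice, at 577 and 802 in WT and 1011 and 937 in KO. Their summed footprints were 357 and 443 in WT and 476 and 509 in KO. Of these 8 genes 5 were in the table, 2 were tested (the globins Hbb-bs and Hba-a1) and 0 were called. The blood genes Hbb-bs, Hba-a1 and Alas2 had higher RNA in both KO mice. For the endothelial genes the genotypes overlapped in RNA. Cldn5 had 13.2 and 28.9 in WT and 23.3 and 16.7 in KO, and Flt1 had 43.9 and 67.7 in WT and 59.8 in each KO mouse. In a bulk cortex, fewer cells of a type and less RNA per cell cannot be told apart, and the part of this in the values below was not tested.

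None of the 10 genes passed the test between Nsun2 KO and WT cortex in RNA, in footprints or in translational efficiency, in contrast to Atf4, which rose in RNA and in footprints (limma, Benjamini-Hochberg adjusted p under 0.05). Over all tested transcripts, 336 (3.15%) were called in RNA, of which 160 (1.5%) were higher and 176 (1.65%) lower, or 122 and 204 when each library was scaled by its median log ratio. In footprints 63 (0.59%) were called, 22 higher (0.206%) and 41 lower (0.384%). In efficiency 0 (0.0%) were called, and 464 (4.35%) had an unadjusted p under 0.05. A count of 0 of 10 lies near these shares. The members' log2 fold changes lay between -0.42 (Pdia4) and 0.27 (Xbp1) in RNA, with a median of -0.08, and between -0.51 (Pdia4) and 0.70 (Xbp1) in footprints, with a median of -0.24. The medians of all transcripts were 0.04 and 0.00. The upper ends of the members' 95% intervals lay at most at 0.62 in RNA and 1.26 in footprints, both for Xbp1, and at 0.41 (Pdia3) and 0.33 (Canx) among the other 9 genes, all below the changes of Atf4 given further on.

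**Figure D1:**
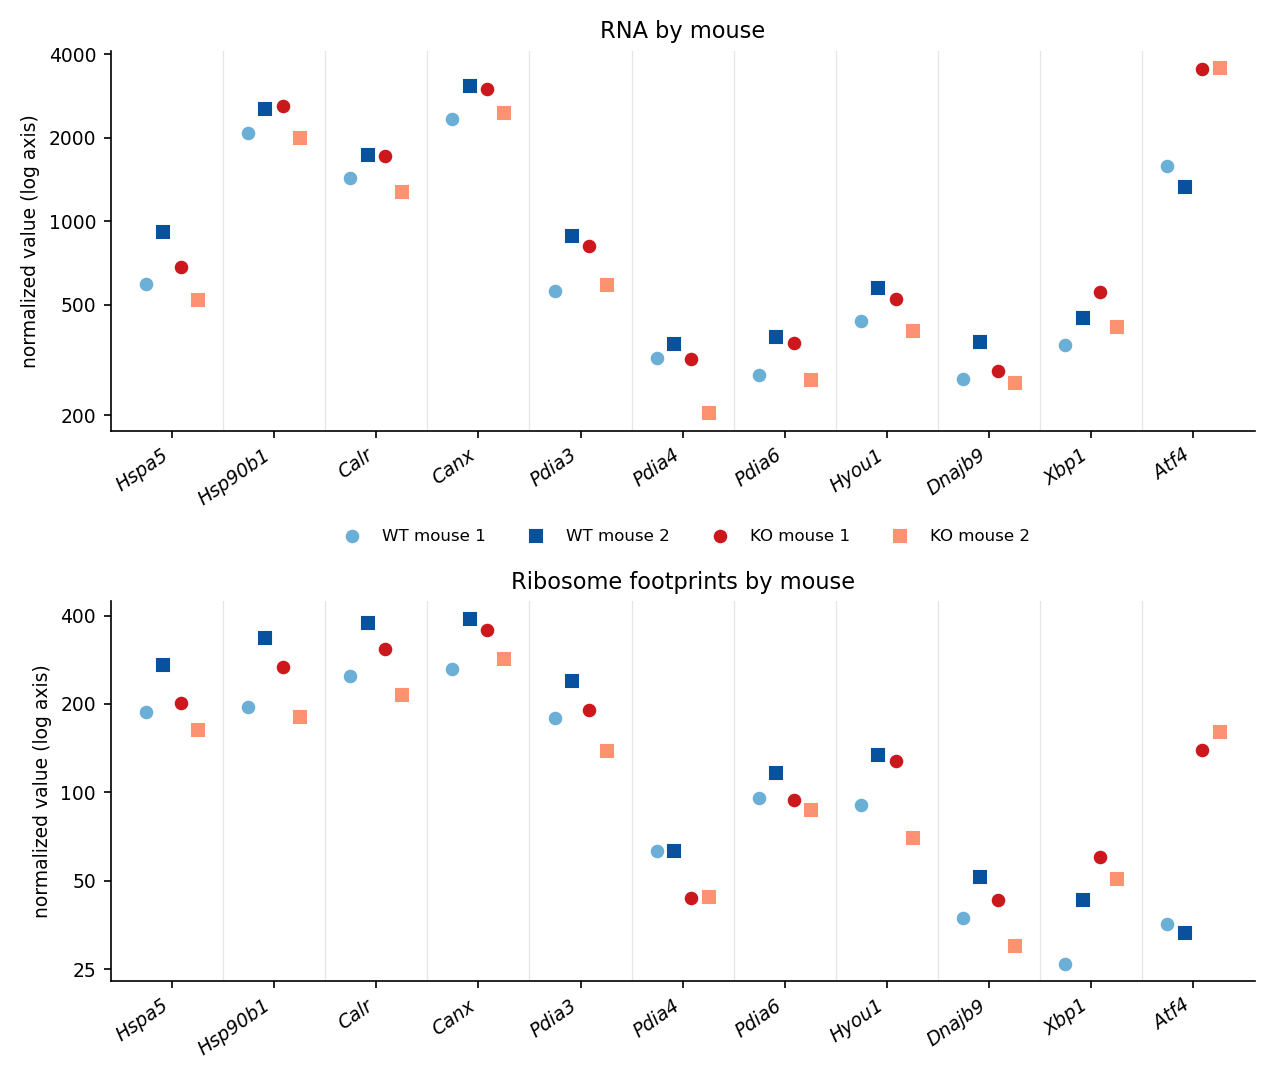
Normalized RNA values (upper panel) and ribosome footprint values (lower panel) of the 10 ER chaperone genes and Atf4 in each of the 4 mice, on log axes (blue, WT; red, KO; circles, mouse 1; squares, mouse 2). WT mouse 2 lies above WT mouse 1 and KO mouse 1 above KO mouse 2 for RNA of all 10 genes, while for Atf4 both KO mice lie above both WT mice.

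Among the Hsp70 system of the lumen, RNA of Hspa5 reached 593 and 914 in WT cortex and 683 and 519 in KO cortex. The genotypes overlapped, with the highest value in WT mouse 2 and the lowest in KO mouse 2. The log2 fold change was -0.31 (standard error 0.19, 95% interval -0.72 to 0.11, limma adjusted p = 0.373). Footprints of Hspa5 were 188 and 272 in WT and 201 and 163 in KO, again with WT mouse 2 highest and KO mouse 2 lowest. Their log2 fold change was -0.32 (standard error 0.17, interval -0.67 to 0.03, limma adjusted p = 0.45), so that RNA and footprints differed by nearly the same amount.

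Hyou1, the exchange factor of Hspa5, had RNA values of 439 and 576 in WT and 524 and 402 in KO, and footprint values of 90.2 and 134 in WT and 128 and 69.9 in KO. The genotypes overlapped in both measures, with WT mouse 2 highest and KO mouse 2 lowest in each. The log2 fold changes were -0.13 in RNA and -0.22 in footprints (standard errors 0.16 and 0.25, limma adjusted p = 0.682 and 0.773). Dnajb9, the J-domain partner, had RNA values of 271 and 367 in WT and 288 and 262 in KO, with footprints of 37.4 and 51.3 in WT and 42.9 and 29.8 in KO. These overlapped as well, with log2 fold changes of -0.20 in RNA and -0.28 in footprints (standard errors 0.16 and 0.26, limma adjusted p = 0.504 and 0.708).

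RNA of Hsp90b1 was 2081 and 2547 in WT and 2616 and 1995 in KO, and the KO mice held both the highest and the lowest value. Its log2 fold change of -0.01 had a 95% interval of -0.31 to 0.29 (limma adjusted p = 0.97). Footprints of Hsp90b1 were 195 and 335 in WT and 266 and 181 in KO (log2 fold change -0.22, standard error 0.21, limma adjusted p = 0.714).

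The lectin chaperones were among the most abundant members. Calr had RNA values of 1435 and 1730.2 in WT and 1718 and 1278 in KO, and footprint values of 248 and 376 in WT and 308 and 215 in KO. Canx had RNA values of 2336 and 3080.1 in WT and 2992 and 2469 in KO, and footprint values of 263 and 390.5 in WT and 356 and 285 in KO. In both genes the genotypes overlapped in both measures. The log2 fold changes of Calr were -0.09 in RNA and -0.25 in footprints (standard errors 0.14 and 0.18, limma adjusted p = 0.759 and 0.609). Those of Canx were 0.02 and -0.01, with 95% intervals of -0.28 to 0.32 and -0.35 to 0.33 (limma adjusted p = 0.951 and 0.99), the members closest to no difference, and their signs turned when the libraries were scaled to their sums.

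Of the disulfide isomerases, Pdia4 had the lowest fold changes of the 10 genes in both measures. Its RNA was 323 and 362 in WT and 320.3 and 203 in KO, and its footprints were 62.9 in each WT mouse and 43.6 and 44.1 in the KO mice. Both KO mice lay below both WT mice in each measure, in RNA by a margin of less than 3 units for KO mouse 1. The log2 fold changes were -0.42 in RNA (standard error 0.19, interval -0.84 to -0.0035) and -0.51 in footprints (standard error 0.21, interval -0.95 to -0.07), and neither passed (limma adjusted p = 0.232 and 0.321). Without KO mouse 1 the RNA value was -0.75 and passed (limma adjusted p = 0.0245). Without any single mouse, the footprint value stayed between -0.52 and -0.50 and did not pass.

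Pdia3 had RNA values of 562 and 889 in WT and 818 and 588 in KO, so that the KO mice lay between the WT mice (log2 fold change -0.03, standard error 0.20, limma adjusted p = 0.951). Its footprints were 179 and 239 in WT and 191 and 138 in KO (log2 fold change -0.35, standard error 0.17, interval -0.71 to 0.01, limma adjusted p = 0.418). Pdia6 had RNA values of 280 and 382 in WT and 366 and 268 in KO, and footprint values of 95.3 and 116 in WT and 94.5 and 86.8 in KO. Its footprints did not overlap between genotypes, but KO mouse 1 and WT mouse 1 differed by less than 1 unit. The log2 fold changes of Pdia6 were -0.06 in RNA and -0.21 in footprints (standard errors 0.18 and 0.17, limma adjusted p = 0.876 and 0.647).

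Xbp1, the transcription factor of the list, had the highest fold changes of the 10 genes. Its RNA was 358 and 447 in WT and 555 and 418 in KO, which overlapped. Its footprints were 26.0 and 43.1 in WT and 60.3 and 50.5 in KO, and both KO mice lay above both WT mice. The log2 fold change was 0.27 in RNA (standard error 0.16, interval -0.08 to 0.62, limma adjusted p = 0.359) and 0.70 in footprints (standard error 0.26, interval 0.14 to 1.26, limma adjusted p = 0.29). Without WT mouse 2 the footprint value was 1.06 and passed (limma adjusted p = 0.0328), and without WT mouse 1 it was 0.35 and did not pass (0.571).

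Counted together, 8 of the 10 genes had a negative log2 fold change in RNA and 9 of 10 in footprints, where 44.0% and 49.6% of all tested transcripts did. The exceptions were Canx and Xbp1 in RNA and Xbp1 in footprints. The values of both KO mice lay below those of both WT mice for 1 gene in RNA (Pdia4) and 2 in footprints (Pdia4 and Pdia6), and above them for 0 in RNA and 1 in footprints (Xbp1). Of all tested transcripts, 21.6% and 19.8% lay below without overlap and 31.4% and 22.8% above. Leaving out 1 mouse changed these directions: 2 members (Pdia4 and Xbp1) kept their sign in RNA without any single mouse and 6 in footprints. Without WT mouse 1, the median log2 fold change of the 10 genes in footprints was -0.51. Hspa5, Hsp90b1, Calr and Pdia3 then had -0.58, -0.61, -0.55 and -0.56. Without WT mouse 2 the median of the 10 genes was 0.00.

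**Figure D2:**
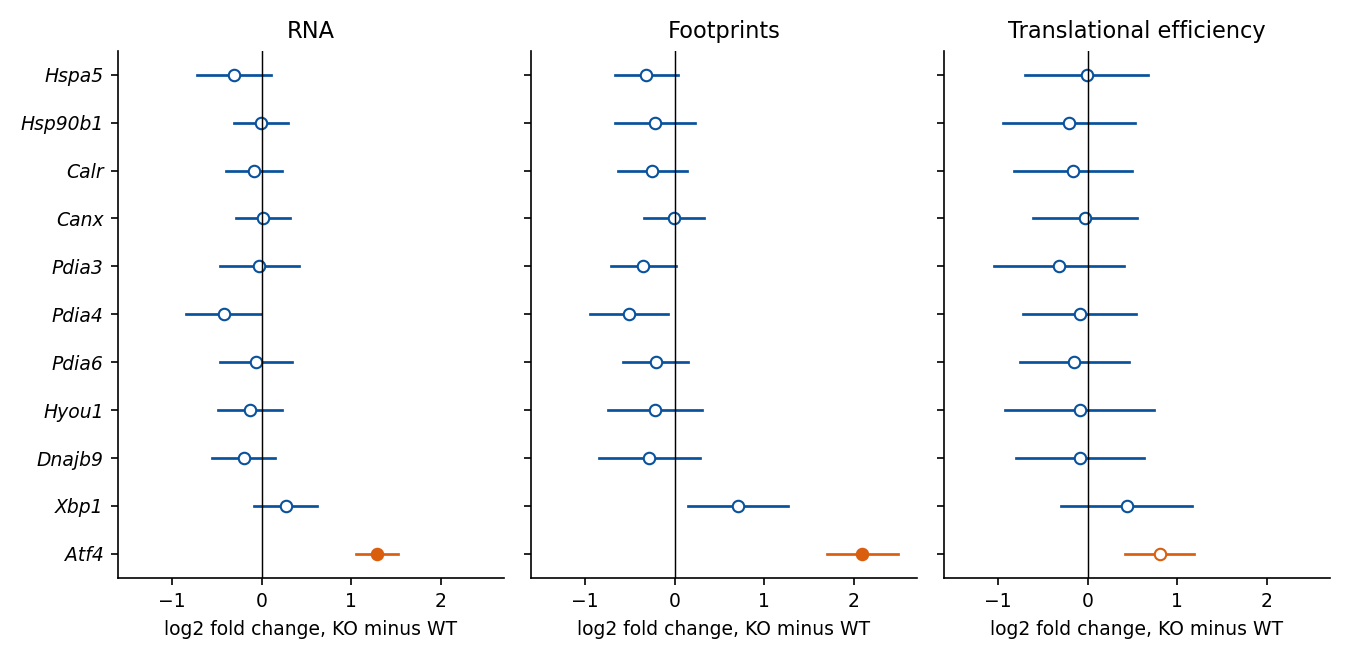
Log2 fold changes between Nsun2 KO and WT (points) with 95% intervals (lines) from limma for RNA, footprints and translational efficiency, 2 mice against 2. Filled points passed the adjusted threshold, which Atf4 (orange) did in RNA (1.29) and footprints (2.09) and none of the 10 ER chaperone genes (blue) did.

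Translational efficiency separated the members by level more than by genotype. Footprints per RNA were highest on average for Pdia6 and Hspa5. This order of genes would also depend on untranslated length where RNA reads lay outside the coding sequence. Pdia6 had ratios of 0.341 and 0.303 in WT and 0.258 and 0.324 in KO, and Hspa5 had 0.317 and 0.298 in WT and 0.295 and 0.314 in KO. Xbp1 had the lowest mean ratio of the list in WT, with 0.0726 and 0.0964 in WT and 0.109 and 0.121 in KO, with both KO mice above both WT mice (log2 fold change 0.44, standard error 0.34, limma adjusted p = 0.999). Pdia3 moved the other way, with ratios of 0.318 and 0.269 in WT and 0.234 and 0.235 in KO and no overlap (log2 fold change -0.32, standard error 0.33, limma adjusted p = 0.999). The ratios of the other 8 genes overlapped between genotypes, and of all tested transcripts 15.2% lay above and 22.9% below without overlap. Of the members, 9 of 10 had a negative log2 fold change in efficiency, against 56.1% of all transcripts, and the median was -0.09 against -0.03. Without any single mouse, Pdia3 and Xbp1 kept their sign.

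**Figure D3:**
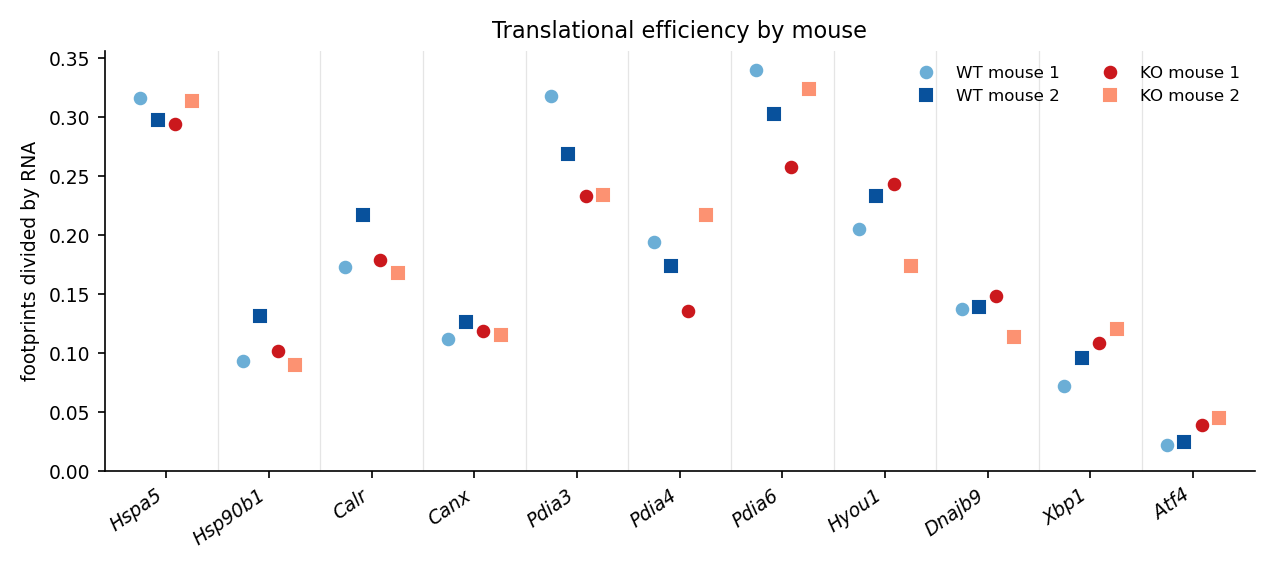
Translational efficiency (footprint value divided by RNA value, linear axis from 0) of the 10 ER chaperone genes and Atf4 in each mouse (blue, WT; red, KO; circles, mouse 1; squares, mouse 2). Atf4 has the lowest ratios in all mice, 0.0223 to 0.0449, and in Atf4 and Xbp1 both KO mice lie above both WT mice.

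Atf4, the transcription factor of the integrated stress response, gave the contrast. Its RNA was 1591 and 1336 in WT and 3552 and 3573 in KO, and its footprints were 35.5 and 33.1 in WT and 139 and 161 in KO. The genotypes stood far apart in both. The log2 fold changes were 1.29 in RNA (standard error 0.11, limma adjusted p = 1.6e-04) and 2.09 in footprints (standard error 0.19, limma adjusted p = 1.1e-04), and both passed without any single mouse. With a variance prior that does not follow the level, the footprints of Atf4 did not pass (limma adjusted p = 0.166). Its efficiency was 0.0223 and 0.0248 in WT and 0.0391 and 0.0449 in KO (log2 fold change 0.80, standard error 0.17) that did not pass over all transcripts (limma adjusted p = 0.999).

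The difference between each member's change and that of Atf4 was tested directly, on values divided by Atf4 in the same library. Unlike the fold changes above, this test used a variance prior that does not follow the level. In RNA, all 10 members changed less than Atf4, with differences between -1.71 (Pdia4) and -1.02 (Xbp1) on the log2 scale (limma adjusted p from 3.7e-04 for Pdia4 to 0.00381 for Pdia3). In footprints the differences lay between -2.60 (Pdia4) and -1.39 (Xbp1), with limma adjusted p from 9.1e-05 to 0.0039. Without any single mouse, all 10 still passed in both measures. This set the members apart from Atf4 but not from other genes, since 99.6% of all tested transcripts passed in this direction in RNA and 99.9% in footprints. Xbp1 was the member nearest to Atf4, with 95% intervals of the difference of -1.58 to -0.47 in RNA and -2.15 to -0.63 in footprints.

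The members varied together among mice of the same genotype, a pattern chosen for description after the values had been seen. RNA of all 10 genes was higher in WT mouse 2 than in WT mouse 1 and in KO mouse 1 than in KO mouse 2, an order that 23.0% of all tested transcripts had. The differences on the log2 scale were 0.17 to 0.66 between the WT mice (median 0.40) and 0.14 to 0.66 between the KO mice (median 0.40), in both cases larger in size than the median of -0.08 between genotypes. In footprints 9 of 10 members had the order, against 26.8% of all transcripts, with medians of 0.55 and 0.39. Pdia4 was the exception, with nearly equal footprints within each genotype. Efficiency had this order in 5 of 10 members, against 25.5%. Summed over the 10 genes, RNA was 8678 and 11295 in WT and 10880.0 and 8402 in KO, and footprints were 1385 and 2021 in WT and 1691 and 1262 in KO, so that each genotype held a high and a low mouse.

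**Figure D4:**
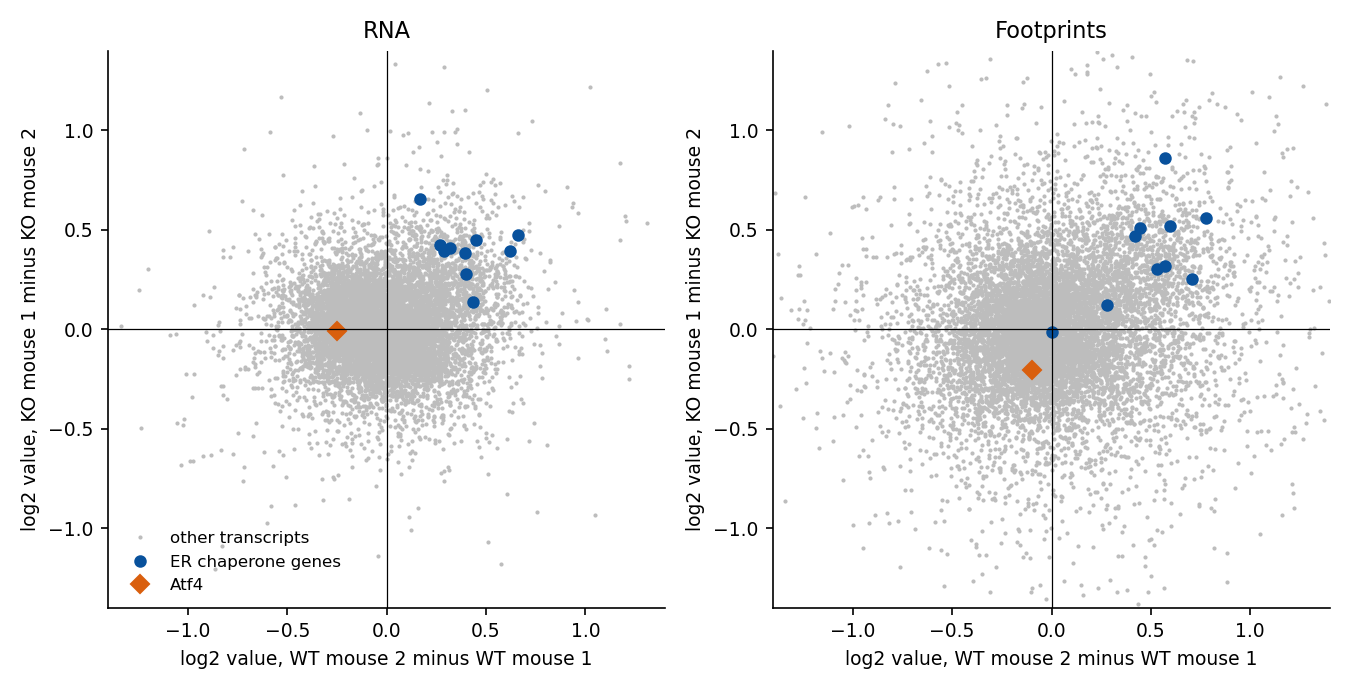
Difference in log2(value + 1) between the WT mice (horizontal) and between the KO mice (vertical) for all tested transcripts (grey), the 10 ER chaperone genes (blue) and Atf4 (orange), in RNA and in footprints, with 9 and 81 transcripts outside the axes. The 10 genes lie in the upper right quadrant in RNA and 9 of 10 do in footprints, where Pdia4 lies at the origin.

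Atf4 did not follow this order, with a difference of -0.25 between WT mouse 2 and WT mouse 1 in RNA and of -0.01 between KO mouse 1 and KO mouse 2. Of 26 tested genes of the integrated stress response, 8 had the order in RNA, and of 24 cytosolic chaperones 0 had it. Of 29 other ER folding factors 24 had it, of 21 genes of ER-associated degradation 12 and of 24 genes of the translocon and signal peptide processing 14. Microglia markers had the same order in 6 of 8 genes, with summed RNA of 649 and 983 in WT and 679 and 528 in KO. Astrocyte markers did so in 5 of 8 genes, with summed RNA of 24205 and 30837 in WT and 27125 and 24060.0 in KO. Oligodendrocyte markers did so in 0 of 8 genes (10352 and 7556 in WT, 8983 and 8883 in KO). Of the remaining lists, 2 of 6 sensors and factors of the unfolded protein response had the order, 2 of 10 mitochondrial chaperones, 1 of 8 excitatory and 3 of 8 inhibitory neuron markers, and both tested endothelium and blood markers. The part of glial, vessel and blood RNA in the members' values was not tested.

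The sensors and partner factors upstream of the members did not pass either. Of 8 genes of this kind, 6 were tested, with 0 called higher and 0 lower in RNA and in footprints and medians of -0.14 and -0.15. Eif2ak3 (Perk), the sensor that leads to Atf4, had RNA values of 265 and 324 in WT and 269 and 182 in KO (log2 fold change -0.40, limma adjusted p = 0.246). Creb3l2, an ER-membrane transcription factor related to Atf6, had footprints of 11.1 and 16.4 in WT and 24.8 and 21.7 in KO (log2 fold change 0.74, limma adjusted p = 0.394). Atf6 had RNA values of 1457 and 1574 in WT and 1526 and 1240.0 in KO, which overlapped. Ern1, whose product splices Xbp1, was not tested because of its low footprints, 4.32 and 7.11 in WT and 4.25 and 3.23 in KO. Its RNA was 109 and 134 in WT and 84.2 and 96.1 in KO. Both KO mice lay below both WT mice in each measure, as did 21.6% of all tested transcripts in RNA and 19.8% in footprints.

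The other genes of the ER pathway were counted from lists. Of 29 tested ER folding factors outside the members, 0 were called in either direction in RNA or in footprints, with medians of -0.06 and -0.14. Ppib, an ER cyclophilin, had the lowest unadjusted p of them (log2 fold change -0.60 in RNA, limma adjusted p = 0.065), and it passed without WT mouse 1 (0.0318) and without KO mouse 1 (0.0376). Of 21 genes of ER-associated degradation and 24 of the translocon and signal peptide processing, 0 were called in either measure. The degradation genes had medians of -0.07 in RNA and -0.15 in footprints, and the translocon genes of 0.12 and -0.05. Herpud1, a partner of the ER degradation ligase, had a log2 fold change of 0.59 in RNA and 0.18 in footprints (limma adjusted p = 0.0529 and 0.696), and its RNA passed without KO mouse 2 (0.012) and where mean footprint and RNA values of at least 50 were required (0.0474).

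The integrated stress response list held called genes. Of its 26 tested genes, 12 were called higher in RNA and 6 in footprints, and 0 were called lower, with medians of 0.50 and 0.69. They included Mthfd2, of mitochondrial folate metabolism (log2 fold change 2.42 in RNA and 2.23 in footprints), Ddit3 (Chop), a transcription factor downstream of Atf4 (1.58 and 1.69), Chac1, a glutathione-degrading enzyme (1.75 and 1.50), and Asns, asparagine synthetase (1.16 and 0.92). These passed in both measures, with limma adjusted p between 4.5e-05 and 6.6e-04 in RNA and between 1.5e-04 and 0.0366 in footprints. Without KO mouse 2 the footprints of Ddit3, Chac1 and Mthfd2 did not pass (limma adjusted p = 0.378, 0.0645 and 0.0795), nor did those of Ddit3 and Chac1 without KO mouse 1 (0.127 and 0.0772). The list was known to have moved in earlier results of these data. Of 24 cytosolic chaperones 0 were called in RNA or footprints, with medians of 0.14 and -0.01, and of 10 mitochondrial chaperones 1 was called higher in RNA, Hspa9 (log2 fold change 0.48, limma adjusted p = 0.0285, not passing without WT mouse 2, KO mouse 1 or KO mouse 2), and 0 in footprints.

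**Figure D5:**
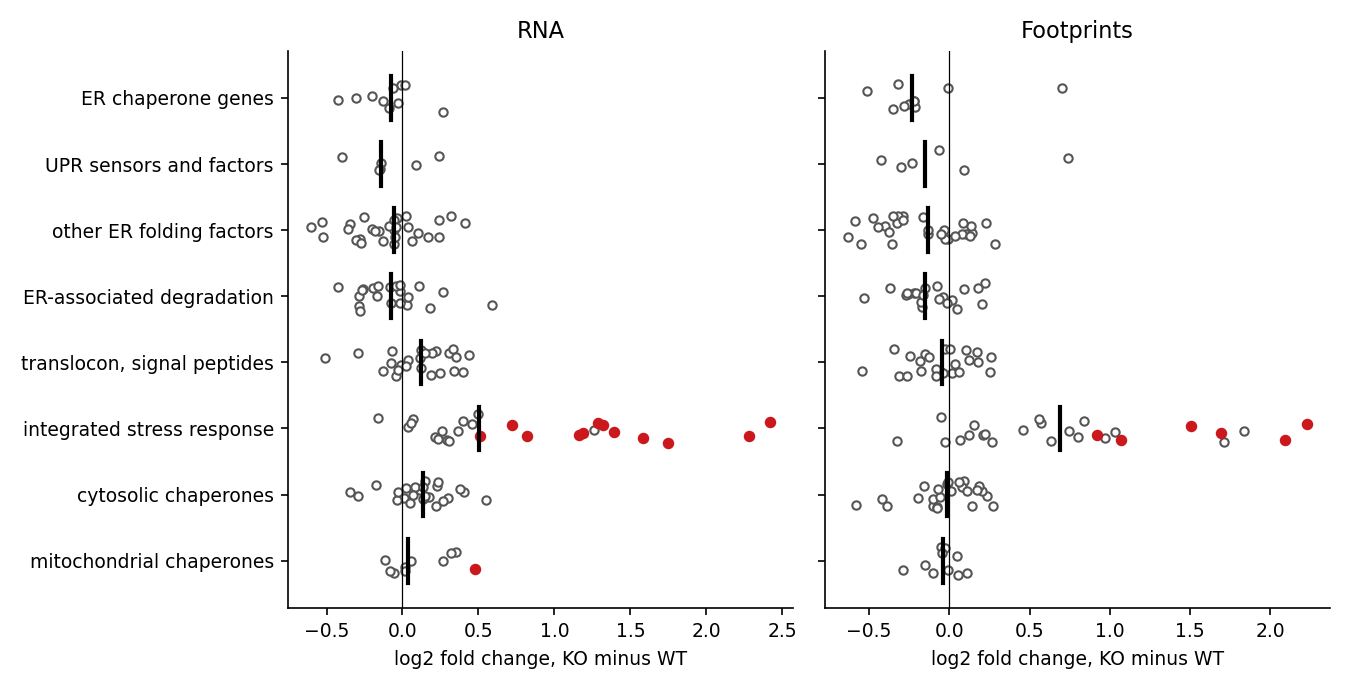
Log2 fold changes between Nsun2 KO and WT of the genes of 8 lists in RNA and footprints, 1 point a gene, with the median of each list as a black bar. Red points passed the adjusted threshold, all of them higher in KO. They belong to the integrated stress response (12 in RNA and 6 in footprints) apart from 1 mitochondrial chaperone in RNA.

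The members also differed in level, which was compared per kilobase of coding length. RNA per kilobase was highest for Canx (1531 ± 209, SD over 4 mice), followed by Calr (1231 ± 177) and Hsp90b1 (958.7 ± 132), neighbours whose ranges over the mice overlapped. Xbp1 (553 ± 103), Pdia3 (470.5 ± 108), Dnajb9 (444 ± 71.8) and Hspa5 (344 ± 87.1) followed with overlapping ranges. Pdia6 (242 ± 43.7), Hyou1 (162 ± 26.5) and Pdia4 (157 ± 35.7) were the lowest. Gaps between neighbours without overlap of the 4 mice lay between Hsp90b1 and Xbp1 and between Pdia6 and Hyou1. In footprints per kilobase the order began with Calr (229 ± 56.7), Canx (182 ± 33.6), Pdia3 (123 ± 27.6), Hspa5 (105 ± 23.7) and Hsp90b1 (101 ± 29.5), and again ended with Hyou1 (35.2 ± 10.3) and Pdia4 (27.7 ± 5.72), with overlapping ranges between all neighbours in this order. Where RNA reads lay outside the coding sequence, the RNA order would also depend on the length of the rest of the transcript.

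The study concerns tRNA for glycine, so the glycine codons of the members were counted. The share of glycine codons had a median of 6.18% in the 10 genes and 6.30% over all 12588 coding sequences, and 4 of 10 members lay above the latter. GGA codons had medians of 1.70% and 1.52%, with 6 of 10 members above the latter. Pdia6 had the highest glycine share of the list (10.1%, at percentile 93.6 of all transcripts) and Hsp90b1 the lowest (4.36%, percentile 14.1). Dnajb9 had the highest share of GGA (3.15%, percentile 93.6). The efficiency of none of these 3 genes passed the test, with log2 fold changes of -0.15, -0.21 and -0.09.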

How the data were processed

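Ribosome profiling of adult mouse cortex was taken from 4 mice of 103 samples in the series, 2 Nsun2 KO and 2 WT, grouped by sample labels. Per the study's methods, footprints were made with cycloheximide and RNase I and RNA libraries with a stranded total RNA kit. The authors trimmed reads with cutadapt 3.1, removed rRNA and tRNA reads, aligned to the longest coding transcript of each gene with Bowtie2 2.4.2, sorted with SAMtools 1.11 and removed duplicates with UMI-tools 1.1.1. The signal that the authors deposited comes from Ribolog and covers 12719 transcripts. RNA and footprint values were normalized by medians, footprints after a correction at stalled codons. The methods state that transcripts with 0 counts were removed. The RNA columns hold no 0, and the footprint columns still hold 35 to 50 values of 0 each. How reads matching several genes were treated is not given in the sources used here. All value columns were used.

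Transcripts were named with GENCODE vM21 (12588 matched, 131 not, and 8 symbols stood on several transcripts). Transcripts with a mean footprint value of at least 10 were compared on log2(value + 1) by limma 3.58.1 with a variance trend, run in R 4.3.3, so fold changes of low genes are understated. The differences from Atf4 were tested without a variance trend. P-values were adjusted by Benjamini-Hochberg over all tested transcripts with a threshold of 0.05. A model over the 8 libraries gave the efficiency test as its genotype by library kind term. It had no term for the mouse, so the RNA and footprint libraries of a mouse were treated as independent. Scripts used Python 3.11.15, numpy 2.4.6, pandas 2.3.3 and matplotlib 3.10.9 and were tested on simulated data. The RNA libraries hold 10465003 to 13174377 steps of their own values. The depth of the footprint libraries is unknown, so no counting interval is given. With 2 mice against 2, p-values rest on the spread between single mice.

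All 10 members, Nsun2 and Atf4 are named, with up to 4 genes of each other list by the smallest unadjusted p, and every gene past the threshold where these were 4 or fewer. Not all genes open to this rule were named. The members and lists were chosen with earlier results of these data known. Atf6 and Ern1 were named outside this rule, as the sensors, and Chac1 after its values were seen. Alternatives were another pseudocount, filter, scaling and variance prior, a replicate block, and leaving out each mouse.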

Additional observations from a re-analysis of the deposited data

How the results depend on the processing

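The differences from Atf4 passed for all 10 members with a pseudocount of 5 and with the replicate block. For the other pseudocount, the filters and the scalings, this test was not read out for single members. No member passed in RNA, footprints or efficiency under another pseudocount, filter, scaling or variance prior, with the ratio of each mouse tested for efficiency, or with the replicate block. Mean values of at least 50 left Dnajb9 and Xbp1 untested. The counts of all called transcripts did move. In RNA (336) they were 33 without a variance trend, 6 with the replicate block and between 50 and 514 without 1 mouse. In footprints (63) they were 25 with mean values of at least 50, 0 without a variance trend (also for Atf4 and Nsun2, each with adjusted p = 0.166 by limma), 3 with the replicate block and between 17 and 548 without 1 mouse. In efficiency they stayed at 0. Without 1 mouse, members called lower ranged from 0 to 1 in RNA and from 0 to 4 in footprints, and members called higher from 0 to 1 in footprints. Leaving out a mouse leaves 1 mouse in its genotype, which is then assumed to vary like the others.

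The mouse numbers are not known to pair the mice. The correlation of same-numbered mice's deviations was -0.11 in RNA and -0.15 in footprints over 10674 transcripts. A crossed replicate block, chosen after seeing the data, called 1047 transcripts in RNA with 1 member lower, and 434 in footprints.

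Signs turned as follows, on the log2 scale. Canx in RNA was -0.019 scaled by median log ratios, -0.018 by quantiles and -0.002 to the sum, and in footprints 0.011 scaled to the sum and 0.001 by quantiles. Efficiency of Hspa5 and Canx was 0.016 and 0.0 by median log ratios, 0.029 and 0.013 by the sum, and 0.024 and 0.019 by quantiles. Without 1 mouse, RNA values ranged from -0.62 to 0.005 (Hspa5), -0.21 to 0.18 (Hsp90b1), -0.30 to 0.12 (Calr), -0.18 to 0.22 (Canx), -0.36 to 0.30 (Pdia3), -0.29 to 0.16 (Pdia6), -0.33 to 0.066 (Hyou1) and -0.42 to 0.019 (Dnajb9). Footprint values ranged from -0.61 to 0.17 (Hsp90b1), -0.55 to 0.049 (Calr), -0.29 to 0.28 (Canx), -0.65 to 0.21 (Hyou1) and -0.77 to 0.16 (Eif2ak3). Efficiency ranged from -0.059 to 0.035 (Hspa5), -0.45 to 0.032 (Hsp90b1), -0.32 to 0.003 (Calr), -0.11 to 0.058 (Canx), -0.43 to 0.25 (Pdia4), -0.31 to 0.015 (Pdia6), -0.33 to 0.15 (Hyou1) and -0.27 to 0.10 (Dnajb9). The cause was not tested. Count tests with edgeR and DESeq2 were not run, since whole reads could not be recovered with certainty.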
